A study of Mus musculus with 139 samples.

Results

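The genes described here are collagens and the structural proteins of the extracellular matrix, taken from a list of 42 mouse genes: 24 collagen chains, the elastic fibre proteins Eln, Fbn1, Fbln1, Fbln2 and Fbln5, the cross-linking enzymes Lox, Loxl1 and Loxl2, the glycoproteins Fn1, Tnc, Postn, Sparc, Thbs1 and Thbs2, and the proteoglycans Dcn, Lum, Bgn and Vcan. Each was read from array features paired with exactly 1 gene symbol, using the feature of highest mean level, which gave 40 of the 42 genes among 22180 genes measured. Fbn1 and Loxl2 had no such feature and were not analysed. Of the 40 genes, 36 had 1 feature and 4 had several. Below the median level of all genes (4.90 on the log2 scale) lay 9: Col4a6, Col5a3, Col8a2, Col11a1, Col15a1, Col16a1, Lum, Vcan and Thbs2. Changes in those 9 are measured in the lower part of the range, at mean levels from 2.63 (Col11a1) to 4.86 (Vcan).

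Lung tissue RNA of male mice was profiled on Affymetrix arrays, 1 per mouse except for 1 mouse with 2. The strain is given as C57BL/J6, and the mice were 7 weeks old when purchased. Every mouse received 50 µl by pharyngeal aspiration under isoflurane, so all groups share the procedure and the dispersion medium (DM), a phosphate-buffered saline with glucose, mouse serum albumin and a lung surfactant lipid. Vehicle mice received DM alone, and exposed mice received 1, 10, 40 or 80 µg of multi-walled carbon nanotubes (MWCNT) or 120 µg of crocidolite asbestos in DM. Lungs were taken at 1, 6 or 12 months, giving 18 groups of 5 to 8 mice (5 for crocidolite at 1 month, 7 for crocidolite at 12 months, 6 for 1 µg MWCNT at 12 months and 8 otherwise). Each lung was sampled once, so the 3 times hold different mice. The mice were of 1 age when purchased, so time after aspiration and age of the mouse rose together and cannot be told apart. The values are log2 levels for a whole lung tissue sample, in which fewer cells of a type and less RNA per cell cannot be told apart.

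Collagens are trimeric proteins. Types I, III and V form the fibrils that carry tension in the lung interstitium, airway wall and pleura, type IV forms the sheet of basement membranes, and type VI forms beaded filaments around cells. Elastin gives the alveolar wall its recoil and is laid down mainly during lung growth, whereas fibronectin and tenascin-C are glycoproteins of provisional matrix that are commonly raised in tissue repair.

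Array quality was even, with each array's median correlation to the others between 0.955 and 0.986. The lowest was crocidolite at 1 month, replicate 4, and replicate 5 of the same group was also among the 10 lowest, so the counts and main genes of that group are also given without those 10 arrays. The word replacement stands in the titles of 38 arrays without explanation. Some results that rest on both kinds of array are also given within each kind. The falls from 1 to 12 months in the exposed arms are not. Markers of lung tissue were all above the median level of all genes (10 of 10), as were those of lung fibroblasts (14 of 14), whereas 10 of 12 cartilage markers and 6 of 8 skeletal muscle markers were below it. Differences below are in log2 units with their standard errors from a limma model over all 18 groups, and a gene was called at an adjusted p under 0.05 (Benjamini-Hochberg over 22180 genes). Shares of all genes called are at this threshold in this model. They are no background for counts at an unadjusted p or for counts under other settings, for which no share of all genes is given.

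Several of these collagen genes lie side by side in the mouse genome, and their start regions are shown because the paired genes also varied together from mouse to mouse, as described further on. In the RefSeq promoter table for GRCm38.p6, which held 28 of the 40 genes, the starts of Col4a1 and Col4a2 are 21 bases apart on opposite strands and their 300-base windows share 78 bases. Col4a3 and Col4a4 are likewise neighbours, and Col1a2 is shown as the partner chain of Col1a1, which lies on another chromosome. The windows are Col4a2 at chr8:11312555-11312854 (plus strand), Col4a4 at chr1:82586800-82587099 (minus strand) and Col1a2 at chr6:4505368-4505667 (plus strand), each written 5′ to 3′ with the letters CCAAT or its reverse complement ATTGG in capitals.
Col4a2: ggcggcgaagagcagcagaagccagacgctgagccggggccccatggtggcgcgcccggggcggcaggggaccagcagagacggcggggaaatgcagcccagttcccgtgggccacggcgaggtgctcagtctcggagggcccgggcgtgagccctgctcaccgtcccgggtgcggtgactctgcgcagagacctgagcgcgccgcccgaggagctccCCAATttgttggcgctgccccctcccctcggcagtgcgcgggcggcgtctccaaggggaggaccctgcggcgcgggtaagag
Col4a4: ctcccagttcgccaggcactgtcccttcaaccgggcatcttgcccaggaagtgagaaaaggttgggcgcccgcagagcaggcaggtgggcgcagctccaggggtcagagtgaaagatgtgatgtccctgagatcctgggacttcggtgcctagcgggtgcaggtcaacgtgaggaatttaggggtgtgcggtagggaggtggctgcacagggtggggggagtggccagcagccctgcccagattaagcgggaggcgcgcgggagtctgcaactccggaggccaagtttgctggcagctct
Col1a2: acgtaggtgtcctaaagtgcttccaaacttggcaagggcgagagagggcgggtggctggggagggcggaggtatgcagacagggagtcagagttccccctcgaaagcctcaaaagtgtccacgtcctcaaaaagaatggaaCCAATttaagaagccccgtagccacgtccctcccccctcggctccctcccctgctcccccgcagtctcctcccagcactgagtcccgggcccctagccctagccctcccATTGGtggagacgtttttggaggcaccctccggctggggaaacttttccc
These letters occur on either strand in the windows of 12 of the 28 genes (42.9%), and in 37.9% of the 27025 windows in the table, so the share is close to that of promoters in general. Col1a2 holds 2 matches, Col4a2 holds 1 and Col4a4 holds none. A match is a description of the sequence and not a binding site.

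The largest movement of these genes was with time, and it was present in lungs that had received only vehicle. Between 1 and 12 months 11 of the 40 genes fell in DM mice and none rose, whereas among all genes 0.437% fell and 0.681% rose. The fall took in the fibrillar collagens Col1a1, Col1a2, Col3a1 and Col5a2, the filament chains Col6a1 and Col6a2, the fibril-associated Col14a1, the elastic fibre genes Eln and Fbln1, and the glycoproteins Tnc and Sparc. The median difference of the 40 genes was -0.33, against 0.00 over all genes. Of the 40 genes 34 had a negative difference, and as many of them varied together from mouse to mouse, these are not separate observations.

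Col3a1, which codes for the homotrimer type III collagen of compliant tissues, had levels between 8.69 and 9.35 in the 8 DM mice sampled at 1 month (median 8.82). The 6-month mice lay between 7.92 and 8.5 (median 8.36), and the 12-month mice between 7.46 and 8.47 (median 8.11). All 8 mice at 12 months were below every mouse at 1 month. The difference was -0.84 ± 0.15 (SE), a level 0.560 times that at 1 month, with an adjusted p of 0.000213 by limma. Col1a1, the major chain of type I collagen, had a lowest, median and highest level of 8.40, 8.65 and 9.30 at 1 month and of 7.20, 8.15 and 8.60 at 12 months. Here 7 of the 8 later mice were below every earlier one, and the difference was -0.72 ± 0.17 (limma adjusted p = 0.00958). Its partner chain Col1a2, whose start region is printed above, moved by -0.58 ± 0.15 (limma adjusted p = 0.0254), with 7 of 8 mice again below the 1-month range. Col5a2, a chain of the type V collagen that sets fibril diameter, moved by -0.55 ± 0.14 (limma adjusted p = 0.025), and 4 of 8 mice were below the 1-month range.

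Eln, the gene of elastin, showed the largest vehicle difference. Its levels at 1 month lay between 7.97 and 8.96 (median 8.41). The 6-month mice lay between 7.68 and 8.70 (median 8.38) and the 12-month mice between 7.23 and 8.0 (median 7.49). The 6-month values largely overlapped those of 1 month, and 7 of 8 mice at 12 months were below every mouse at 1 month. The difference from 1 to 12 months was -0.87 ± 0.20, or 0.546 times (limma adjusted p = 0.00599). Tnc, the gene of tenascin-C, ranged over 5.38, 6.24 and 6.54 (lowest, median and highest) at 1 month and over 4.83, 5.28 and 5.80 at 12 months. The ranges overlapped in 3 of the 8 later mice, and the difference was -0.81 ± 0.18 (limma adjusted p = 0.00457). Sparc, which codes for a collagen-binding matricellular protein, moved least of the 11 called genes, by -0.34 ± 0.08, but within narrow groups (10.15 to 10.53 at 1 month and 9.87 to 10.23 at 12 months).

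The basement membrane chains behaved less uniformly in vehicle lungs. Col4a3, a chain of the alveolar and glomerular basement membrane, had a difference of -0.42 ± 0.27 and did not pass the test. Its level ranged from 7.49 to 8.42 at 1 month but from 6.32 to 8.17 at 12 months, with an SD of 0.30 and 0.65, and 5 of the 8 later mice stayed within the early range. Col4a6 differed by 0.05 ± 0.15. Fn1, the gene of fibronectin, differed by -0.31 ± 0.12 and also missed the threshold. The short network collagens Col8a1 and Col8a2 had positive differences of 0.36 ± 0.18 and 0.05 ± 0.18.

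Within the kinds of array, where each fit held fewer mice, 2 of the 40 genes were called without the title word and none with it. For Col3a1 the difference was -0.60 in arrays without the title word and -1.13 in arrays with it. For Col1a1 it was -0.33 and -1.21, for Eln -0.65 and -1.15, and for Tnc -0.86 and -0.78. Without the 10 arrays of lowest correlation 7 of the 11 calls were made, and Col1a1 (-0.59, limma adjusted p = 0.0653) and Col5a2 (-0.44, limma adjusted p = 0.0691) were among those lost. Of DM mice at these times the 10 held replicate 3 at 1 month and replicate 2 at 12 months. Averaged over the 40 genes, that 12-month mouse lay further below its group mean than any other mouse (-0.41). Its part in the fall was not tested. The split of all called genes depended on scaling: 60.9% of them were higher at 12 months as deposited and 49.4% after median centring, under which 14 of the 40 matrix genes were lower and none higher. The share of all genes called after median centring is not given.

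Beside this fall, 3 markers of other cells passed in DM mice, all lower: the pericyte and fibroblast receptor Pdgfrb (-0.66), the alveolar type II gene Lamp3 (-0.41) and the squamous gene Sprr1a (-1.77, a larger difference than that of any matrix gene). Of 14 lung fibroblast markers 1 was lower at 12 months in DM mice, and the mean of the list lay between 9.12 and 9.40 at 1 month and between 8.92 and 9.35 at 12 months. None of 7 smooth muscle markers and none of 12 cartilage markers passed, with list means of 6.92 to 7.48 and 6.36 to 7.78 for smooth muscle and 3.52 to 3.85 and 3.42 to 3.72 for cartilage. The skeletal muscle list had a mean of 3.51 to 7.33 at 1 month and 3.43 to 4.81 at 12 months, with all 8 genes negative and none passing, and the squamous list of 2.88 to 7.90 and 2.52 to 3.35, with 1 of 7 passing. Both wide ranges came from single DM mice at 1 month, replicate 8 for muscle and replicate 2 for squamous genes. Without replicate 8 the count of matrix genes called was 11, and without replicate 2 it was 10, Col5a2 being lost (-0.52, limma adjusted p = 0.0584). The part of the other cells in the result was not tested.

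The step from 1 to 6 months and that from 6 to 12 months were each too small for any of the 40 genes to pass alone in DM mice. From 1 to 6 months 15 genes had an unadjusted p under 0.05 by limma and none passed after adjustment, with 0.117% of all genes higher and 0.018% lower. From 6 to 12 months 12 had an unadjusted p under 0.05 and none passed, with 0.239% of all genes called in either direction. These shares are at the adjusted threshold, so they are no background for the unadjusted counts of 15 and 12.

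**Figure D1:**
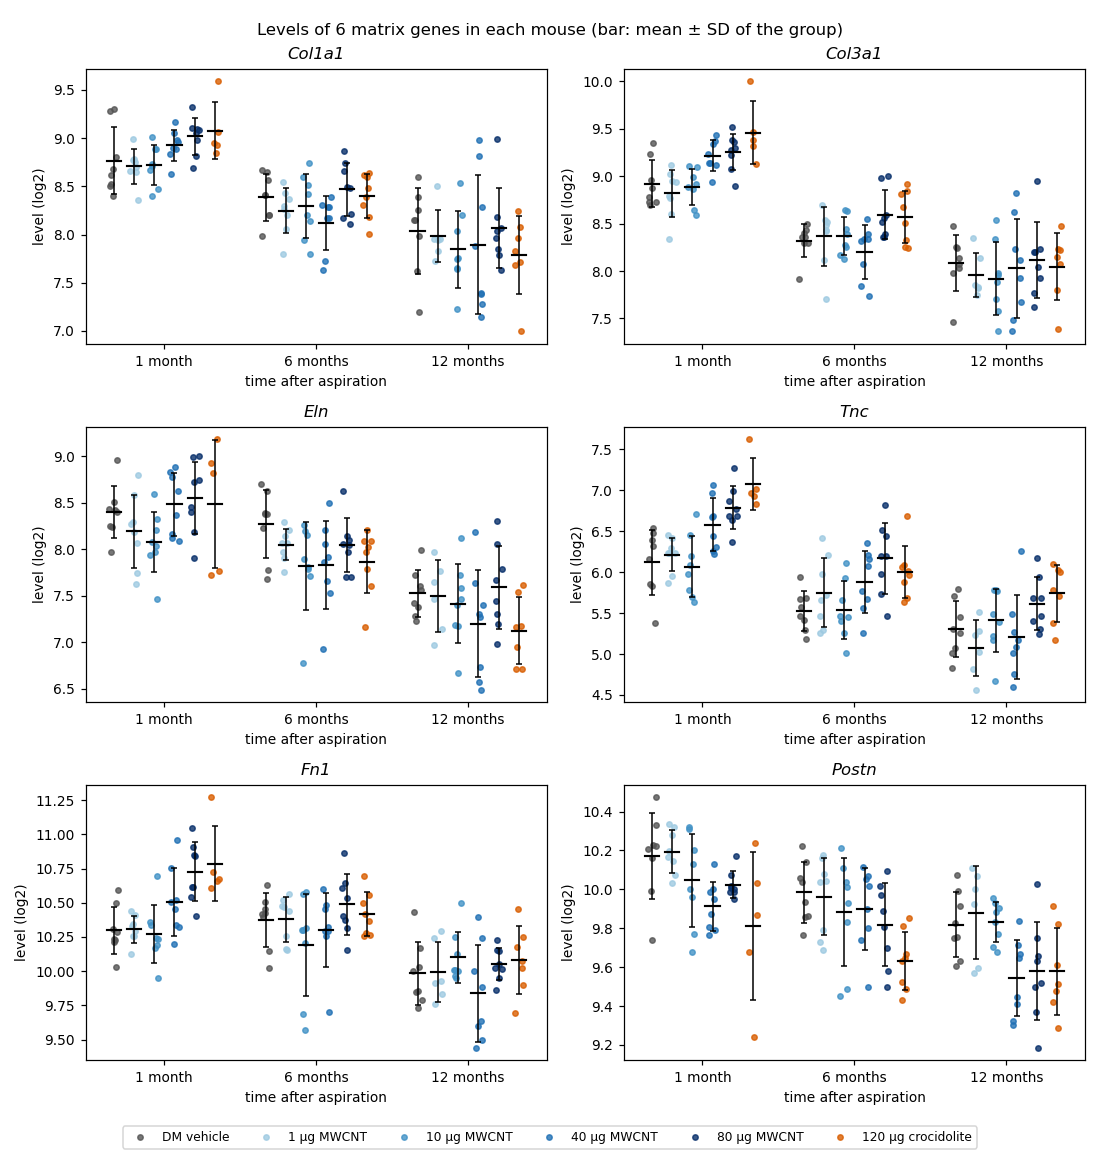
Log2 levels (vertical axes) of Col1a1, Col3a1, Eln, Tnc, Fn1 and Postn in each mouse, by time after aspiration (horizontal axis) and treatment (colours), with the mean ± SD of each group as black bars. The group means at 12 months lie below those at 1 month for Col1a1, Col3a1, Eln and Tnc in all 6 arms, and Tnc at 1 month is highest after crocidolite, where the 5 mice sit between 6.83 and 7.62 and above all 8 DM mice.

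The same comparison in the 5 exposed arms rests on other mice and gave the same direction. At 12 months against 1 month 18 of the 40 genes fell after crocidolite, 19 after 80 µg MWCNT, 25 after 40 µg, 12 after 10 µg and 9 after 1 µg, and none rose in any arm. The share of all genes that fell was 1.03% after crocidolite, 1.69% after 80 µg, 4.85% after 40 µg, 0.275% after 10 µg and 0.505% after 1 µg. The share that rose was 3.28%, 1.36%, 2.46%, 1.53% and 1.08% in the same order. The median difference of the 40 genes lay between -0.53 (40 µg) and -0.32 (1 µg) in these arms, against medians between -0.00 and 0.04 over all genes. After crocidolite 19 fell without the 10 arrays, a fit for which the share of all genes is not given. This comparison was added after the vehicle result had been seen, and its counts are not given within each kind of array. After crocidolite the title word stood on 3 of 5 arrays at 1 month and on 5 of 7 at 12 months. After 80 µg MWCNT it stood on 3 and 5 of 8, and after 40 µg on 0 and 4 of 8. After 10 µg it stood on 1 and 2 of 8, and after 1 µg on 1 of 9 and 2 of 6.

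Markers of other cells also differed between the times in the exposed arms. After 40 µg, the arm with the most calls, 7 of 14 lung fibroblast markers and 6 of 10 macrophage markers were lower at 12 months. The fibroblast list mean went from 8.97 to 9.35 (median 9.19) at 1 month to 8.60 to 9.09 (median 8.83) at 12 months, the macrophage median from 8.02 to 7.32 and the smooth muscle median from 6.93 to 6.42. After 80 µg 3 fibroblast and 4 macrophage markers were lower (macrophage median 8.46 and 7.62), and after crocidolite 3 fibroblast markers were lower, 1 higher and 2 macrophage markers lower. After 10 and 1 µg 1 and 2 fibroblast markers and no macrophage marker were lower. The part of these cells was not tested.

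Across the 6 arms, vehicle included, 8 genes fell in every arm: Tnc, Col3a1, Col1a1, Col1a2, Col14a1, Fbln1, Col6a1 and Sparc. Over the whole array 22 of 22180 genes (0.0992%) did so. In the fit without the 10 arrays 7 genes fell in every arm, 6 of them among these 8; Col1a1 and Col1a2 no longer did, and Eln did. A further 4 of the 40 genes (Col5a2, Col6a2, Eln and Col6a3) fell in 4 or 5 arms, 14 in 1 to 3 arms, and 14 in none. A negative difference in all 6 arms was found for 29 of the 40 genes, against 7.23% of all genes.

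Col3a1 and Sparc were below the 1-month range in the same number of mice. The difference of Col3a1 was -1.41 ± 0.17 after crocidolite (-1.23 without the 10 arrays), -1.14 ± 0.15 after 80 µg MWCNT, -1.18 ± 0.15 after 40 µg, -0.97 ± 0.15 after 10 µg and -0.86 ± 0.16 after 1 µg. Of the 45 mice at 12 months 43 were below every 1-month mouse of their own arm, and in 4 arms the groups did not overlap at all. Sparc differed by less, -0.50 to -0.34, with 43 of 45 mice below their arm's 1-month range and no overlap in 5 of 6 arms. Col1a1 fell by 1.29 on the log2 scale after crocidolite and by 0.72 after 1 µg MWCNT, the ends of its range, with 39 of 45 mice below. Tnc fell by 1.37 after 40 µg MWCNT and by 0.66 after 10 µg, with 38 of 45 mice below.

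The group means of Col1a1, Col1a2, Col3a1, Col5a2, Col6a1, Col6a2, Col14a1, Tnc, Eln, Sparc, Loxl1 and Postn stepped down from 1 to 6 and from 6 to 12 months in 6 of 6 arms. Eln had a negative difference in every arm (-1.36 to -0.66) and passed in 4, missing the threshold after 10 µg (limma adjusted p = 0.0515) and 1 µg MWCNT (limma adjusted p = 0.0585). Fn1 passed in 3 arms, falling by 0.70 after crocidolite and by 0.67 after both 80 and 40 µg MWCNT, and differed by -0.17 after 10 µg. The paired basement membrane chains Col4a1 and Col4a2 each fell in 3 arms (differences of -0.72 to -0.26 and of -0.74 to -0.39 over the 6 arms).

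The genes called in few or no arms included the small leucine-rich proteoglycans Dcn and Lum, which coat collagen fibrils. Both passed in no arm but had a negative difference in 5 of 6, with medians over the arms of -0.25 and -0.29. Missing the threshold does not show that they did not fall. Bgn, of the same family, fell in 1 arm. Of the remaining collagens Col8a1 and Col8a2 had median differences of 0.36 and 0.20 and passed in no arm. Col4a6 and Col18a1 had medians of 0.04 and 0.01. After quantile normalization 1 of the 40 genes was higher at 12 months after crocidolite; with that exception no gene of the set was called higher under either other scaling in any arm. Col13a1 fell after 40 µg MWCNT only among the arms tested, and whether arms differ was not tested for it.

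**Figure D2:**
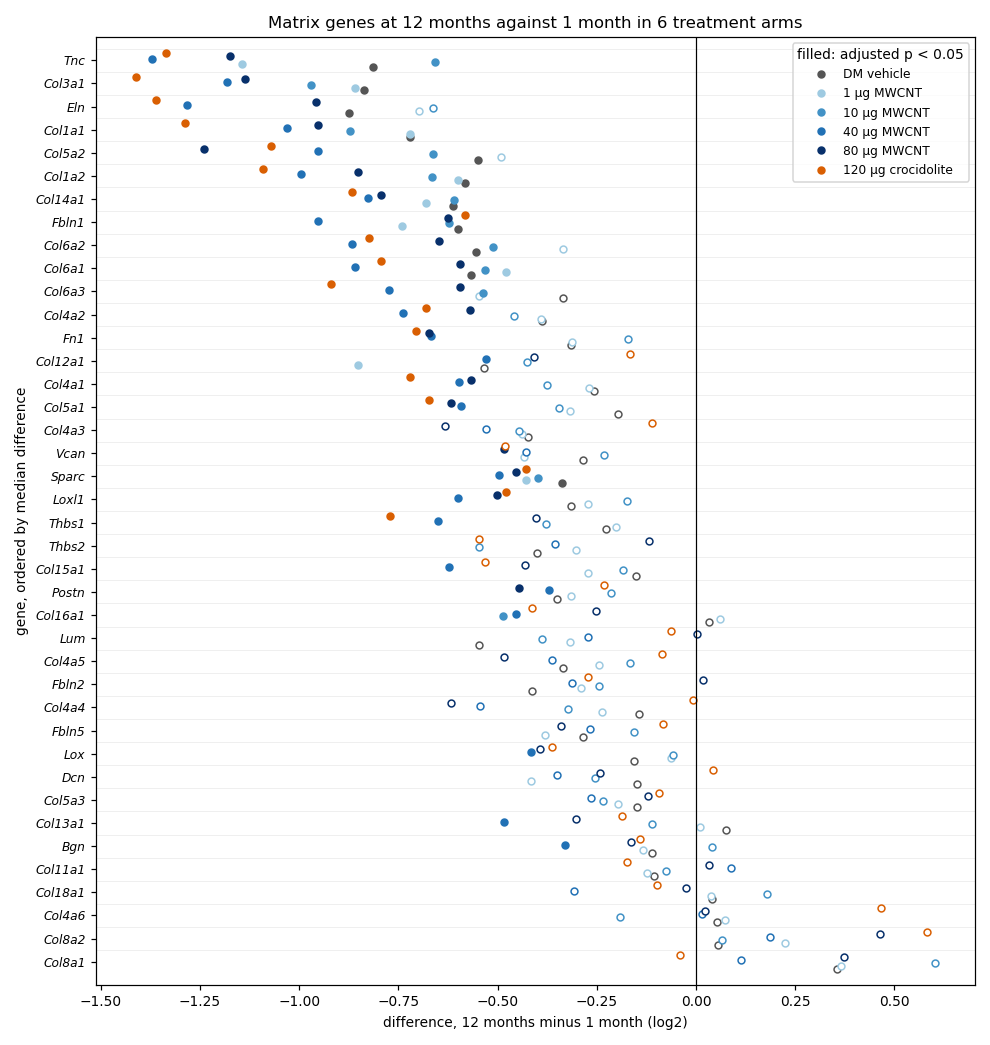
Difference between 12 months and 1 month (horizontal axis, log2) for the 40 matrix genes (vertical axis, ordered by their median over arms) in the 6 treatment arms (colours), with filled points for an adjusted p under 0.05. Points for Tnc, Col3a1 and Col1a1 are filled in all 6 arms and lie between -1.41 and -0.66, and the few points above 0 are open.

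Other matrix genes, from lists kept apart from the 40, moved in part with time. Over all genes 6.14% fell in at least 1 of the 6 arms. The share that fell in at least 3 arms is not given, so the counts at that level have no background here. Of 14 further elastic fibre assembly genes 3 fell in at least 3 of the 6 arms, led by Mfap5, a microfibril protein that fell in all 6 (-0.99 to -0.76). Of 16 basement membrane laminins and linkers 3 fell in at least 3 arms and 10 in 1 or 2, with Nid1 and Lamc1, the nidogen linker and a laminin chain shared by most laminins, falling in 4 each. Of 17 matricellular and adhesion glycoproteins 2 fell in at least 3 arms, Thbs3 in 5 and Igfbp7 in 4. For matrix receptors it was 1 of 16 (the integrin chain Itgav) and for collagen processing and secretion 1 of 19 (the prolyl hydroxylase P4ha3). None of 19 other collagens and none of 15 small proteoglycans and hyaluronan genes fell in 3 or more arms. Except for 1 gene among the other collagens, no gene of these lists was higher in any arm; that gene was Col19a1. In DM mice alone the genes that fell were Mfap5 (-0.85 ± 0.16), Thbs3 (-0.65 ± 0.15), Hspg2, the gene of perlecan (-0.52 ± 0.13), Nid1 (-0.42 ± 0.12), Igfbp7 (-0.37 ± 0.10) and Itgav (-0.30 ± 0.07).

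Exposure moved few of the 40 genes, and the main one was Tnc. At 1 month after crocidolite 4 genes were higher than in DM mice and 2 lower, while 2.93% of all genes were higher and 2.83% lower. The higher genes were Tnc, Col3a1, Col5a2 and Fn1, and the lower ones were Col4a6 and Postn. The median difference of the 40 genes was 0.04, against -0.01 over all genes.

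Tnc in the 5 crocidolite mice at 1 month was 7.62, 6.83, 6.94, 6.97 and 7.02, and all 5 were above every DM mouse of that time (5.38 to 6.54). The difference was 0.96 ± 0.20 or 1.94-fold (limma adjusted p = 0.000417), and 0.97 (limma adjusted p = 0.0163) without the 10 arrays of lowest correlation. Fn1 was 11.27, 10.61, 10.72, 10.67 and 10.66 in these mice, again all above the DM range of 10.03 to 10.59, with 1 mouse well above the other 4. Its difference was 0.49 ± 0.13 (limma adjusted p = 0.0097). It was 0.37 and not called without that mouse, and 0.56 (limma adjusted p = 0.0604) without the 10 arrays.

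Col3a1 was 9.38, 9.12, 9.32, 10.00 and 9.47, with 3 of 5 mice above every DM mouse (8.69 to 9.35), and differed by 0.54 ± 0.17 (limma adjusted p = 0.0326). Col5a2 was 7.30, 6.56, 6.81, 7.02 and 6.91, with 4 of 5 above the DM range (5.93 to 6.66), and differed by 0.53 ± 0.16 (limma adjusted p = 0.0294). Col1a1, by contrast with its fall over time, did not pass: its 5 values were 9.06, 8.85, 8.93, 9.59 and 8.95, of which 1 was above the DM range, and the difference was 0.31 ± 0.19. Without the 10 arrays Col3a1 differed by 0.36 (limma adjusted p = 0.600) and Col5a2 by 0.48 (limma adjusted p = 0.220).

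Both lower genes were lowest in replicates 4 and 5, the 2 mice of this group among the 10 arrays of lowest correlation. Col4a6, a chain of smooth muscle and epithelial basement membranes, was 4.58, 4.63, 4.36, 3.71 and 3.80, against 4.42 to 5.14 in DM mice. It differed by -0.54 ± 0.17 (limma adjusted p = 0.0406), and by -0.28 (limma adjusted p = 0.739) without the 10 arrays. Postn, the gene of periostin, a collagen-binding glycoprotein, was 9.87, 10.24, 10.03, 9.24 and 9.68, against 9.74 to 10.47. It differed by -0.36 ± 0.12 (limma adjusted p = 0.0477) and by -0.08 without the 10 arrays. Leaving out replicate 4 or replicate 5 alone left 2 of the 6 calls in each case, and leaving out replicate 1 left 3. No gene passed within either kind of array, where for Tnc the difference was 0.75 without the title word and 1.12 with it.

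Markers of other cells moved at the same time. Of 10 macrophage markers 8 were higher (6 without the 10 arrays), with list means of 8.29 to 9.31 in the crocidolite mice and 6.63 to 7.01 in DM mice. Of 14 lung fibroblast markers 7 were lower (8.43 to 9.17 against 9.12 to 9.40), and of 10 endothelial markers 5 were lower (8.68 to 9.61 against 9.39 to 9.73). No fibroblast or endothelial marker passed without those arrays. Their part in the result was not tested.

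At the later times after crocidolite few of the 40 genes were called, and those were lower. Counts this small, beside the shares of all genes given here, are not read as a trait of the set. At 6 months Col13a1 and Postn were lower and none of the 40 was higher, with 2.23% of all genes lower and 1.45% higher. Col13a1, which codes for a transmembrane collagen of cell contacts, ranged from 5.44 through a median of 5.65 to 6.14 against 6.04, 6.26 and 6.43 in DM mice, and 7 of 8 mice were below every DM mouse. The difference was -0.55 ± 0.14 (limma adjusted p = 0.00753). The same DM mice were also above most MWCNT mice of that time. Below every DM mouse were 6 of 8 mice after 1 µg, 5 of 8 after 10 µg, 5 of 8 after 40 µg and 6 of 8 after 80 µg. In DM mice themselves Col13a1 differed by 0.48 ± 0.14 at 6 months against 1 month. From 6 to 12 months it differed by -0.40 ± 0.14, and neither step passed. Postn ranged from 9.43 through 9.64 to 9.85 against 9.76, 9.99 and 10.22, with 6 of 8 mice below, and differed by -0.35 ± 0.10 (limma adjusted p = 0.0291). Tnc, with 5 of 8 mice above every DM mouse, differed by 0.47 ± 0.18 and did not pass. Every crocidolite mouse at 6 months lay outside the DM range in the mean of 3 marker lists: 8.84 to 9.19 against 9.26 to 9.45 for lung fibroblasts (5 of 14 genes lower), 9.13 to 9.48 against 9.56 to 9.77 for endothelium (7 of 10 lower) and 7.24 to 8.34 against 6.35 to 6.94 for macrophages (5 of 10 higher).

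At 12 months Col13a1 alone of the 40 was lower, while 2.16% of all genes were lower and 4.31% higher. It ranged over 4.69, 5.36 and 5.71 against 5.27, 5.93 and 6.05, with 3 of 7 mice below, and differed by -0.54 ± 0.14 (limma adjusted p = 0.00689). Col1a1, Eln and Col6a3 had differences of -0.25 ± 0.17, -0.40 ± 0.20 and -0.43 ± 0.15 that did not pass. At 12 months 10 of 14 lung fibroblast markers, 7 of 10 endothelial markers and 4 of 7 smooth muscle markers were lower and 9 of 10 macrophage markers higher. The part of these cells at 6 and 12 months was not tested.

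**Figure D3:**
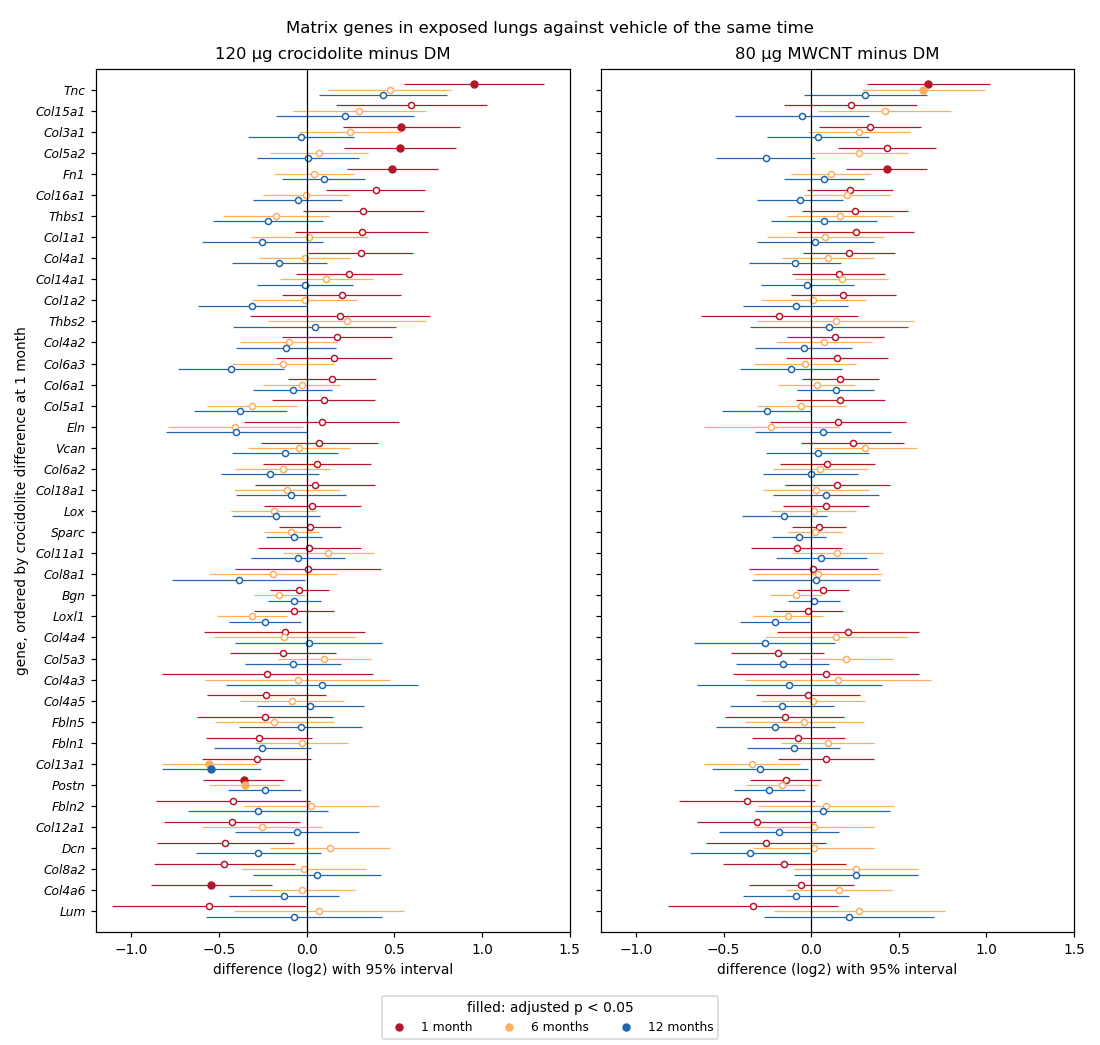
Difference from DM mice of the same time (horizontal axes, log2, with 95% intervals) for the 40 matrix genes (vertical axis, ordered by the crocidolite difference at 1 month) after crocidolite and after 80 µg MWCNT, at 1, 6 and 12 months (colours), with filled points for an adjusted p under 0.05. Tnc lies at 0.96 after crocidolite and at 0.67 after 80 µg MWCNT at 1 month, and most other intervals cross 0.

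At the highest dose of MWCNT the call was again led by Tnc. All exposures of a time share its DM mice. At 1 month after 80 µg Tnc and Fn1 were higher and none of the 40 was lower, while 1.69% of all genes were higher and 0.108% lower. Tnc ranged from 6.37 through 6.73 to 7.27, with 7 of 8 mice above every DM mouse, and differed by 0.67 ± 0.18 or 1.59-fold (limma adjusted p = 0.0188). Fn1 ranged from 10.40 through 10.73 to 11.05, with 6 of 8 mice above, and differed by 0.43 ± 0.12 (limma adjusted p = 0.0215). Within the kinds of array Tnc differed by 0.48 without the title word and 0.95 with it, and Fn1 by 0.36 and 0.58, none called. Col5a2 and Col3a1 had differences of 0.43 ± 0.14 and 0.34 ± 0.15 and did not pass. At 6 months Tnc was higher (5.47, 6.19 and 6.82 against 5.18, 5.52 and 5.94 in DM mice, 6 of 8 above), by 0.64 ± 0.18 (limma adjusted p = 0.048), with 0.803% of all genes higher and 0.131% lower. At 12 months none of the 40 passed and 4 had an unadjusted p under 0.05, with 0.158% of all genes higher and 0.018% lower. Macrophage markers were higher at 1 month (8 of 10, list means 7.96 to 9.08 against 6.63 to 7.01), and no fibroblast marker passed. At 6 months 6 of 10 macrophage markers were higher, with Mmp12 at 2.92, Gpnmb at 2.47 and Ctsk at 2.04 (list means 6.72 to 8.99 against 6.35 to 6.94 in DM mice), and 1 of 14 fibroblast markers, Itga8, was lower (-0.38). The part of these cells was not tested.

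Lower doses gave no call. After 40 µg the counts of the 40 genes with an unadjusted p under 0.05 by limma were 4, 5 and 13 at 1, 6 and 12 months, with none passing, while 0.573%, 0.212% and 0.0361% of all genes passed. Here and for the doses below, the shares are at the adjusted threshold and are no background for the unadjusted counts. At 12 months 38 of the 40 genes had a negative difference after 40 µg and none passed, with a median of -0.21 against -0.01 over all genes. Many of the 40 genes varied together from mouse to mouse, so their directions are not separate observations. The furthest were Col13a1 (-0.46 ± 0.14, limma adjusted p = 0.149), Bgn (-0.21 ± 0.07) and Postn (-0.28 ± 0.10). In arrays without the title word 11 of the 40 passed there, all lower, and the share of all genes called in those arrays is not given. The fibroblast list mean was 8.60 to 9.09 (median 8.83) in these mice against 8.92 to 9.35 (median 9.18) in DM mice, and the smooth muscle median was 6.42 against 7.20, with no gene of either list passing; 2 of 10 macrophage markers were higher. Their part was not tested. After 10 µg 2, 4 and 1 genes had an unadjusted p under 0.05 and none passed, with 0.0225%, 0.00451% and 0% of all genes passing. After 1 µg it was 0, 2 and 1, with 0%, 0% and 0% of all genes passing.

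The trend over MWCNT dose, fitted per unit of log2 of the dose in µg plus 1 with DM as dose 0, called 4 genes at 1 month, all rising. It shares the DM mice with the comparisons above. The slopes were 0.10 ± 0.02 for Tnc (limma adjusted p = 0.00455), 0.06 ± 0.01 for Fn1 (limma adjusted p = 0.00815), 0.06 ± 0.02 for Col5a2 (limma adjusted p = 0.0275) and 0.06 ± 0.02 for Col3a1 (limma adjusted p = 0.0393). Of all genes 2.56% had a rising slope and 0.473% a falling one. The mean level of Tnc was 6.12 ± 0.40 (SD, n = 8) in DM mice and 6.21 ± 0.20, 6.07 ± 0.38, 6.58 ± 0.32 and 6.79 ± 0.27 at 1, 10, 40 and 80 µg, so that the means at 1 and 10 µg lay within 1 SD of the DM mean and those at 40 and 80 µg did not. At 6 months none of the 40 passed, 3 had an unadjusted p under 0.05, and 1.18% of all genes rose and 0.162% fell. At 12 months Postn (-0.05 ± 0.01, limma adjusted p = 0.0458) and Col13a1 (-0.07 ± 0.02, limma adjusted p = 0.0482) fell with dose, with 0.591% of all genes rising and 0.613% falling.

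The 2 materials were not told apart by these genes in a direct comparison. Between 80 µg MWCNT and crocidolite none of the 40 passed at 1, 6 or 12 months (2, 3 and 3 had an unadjusted p under 0.05 by limma), while 0.0902%, 0.0271% and 0.978% of all genes passed. For Tnc at 1 month the difference was -0.29 ± 0.20. Without the 10 arrays none passed at 1 month and none had an unadjusted p under 0.05. A p that misses the threshold does not show that the materials act alike, and their doses differ. Whether an exposure effect changed between 1 and 12 months was tested as an interaction. None of the 40 passed for crocidolite (10 with an unadjusted p under 0.05, 0.0541% of all genes called) or for 80 µg MWCNT (3 and 0.00902%). Without the 10 arrays none passed for crocidolite and 9 had an unadjusted p under 0.05.

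Other matrix genes moved with exposure as well. At 1 month after crocidolite 2 of 19 collagen processing genes were higher and 1 lower, with the prolyl hydroxylase subunit P4ha3 at 1.18 ± 0.20 and Pcolce2, which aids procollagen processing, at -0.74 ± 0.13. Of 19 other collagens 3 were higher, with Col6a5 at 1.03 ± 0.32 and Col28a1 at 0.96 ± 0.20. Of 14 elastic fibre genes 1 was higher (Ltbp2, 0.81 ± 0.16) and 2 lower, with Ltbp4 at -0.52 ± 0.15; both code for latent TGF-beta binding proteins. Of 16 laminins and linkers 2 were lower, Npnt at -0.51 ± 0.11 and Pxdn at -0.35 ± 0.11. Among the proteoglycan and hyaluronan genes 2 of 15 were higher, the hyaluronan receptor Cd44 at 0.67 ± 0.12 and the syndecan Sdc1 at 0.57 ± 0.12, and 1 was lower. The matricellular list had 1 of 17 higher (Thbs4, 1.07 ± 0.30) and 1 lower (Vtn, -0.69 ± 0.18), and the receptors 1 of 16 higher (the integrin chain Itga7, 1.03 ± 0.19) and 3 lower, with Itga8 at -0.56 ± 0.10. With the 10 arrays left out 6 genes of these lists were higher and none lower: P4ha3 (1.05), Cd44 (0.75), Sdc1 (0.58), Col28a1 (1.16), Itga7 (0.81) and the collagen glycosyltransferase Colgalt1 (0.49) were called, while Pcolce2 (-0.36), Itga8 (-0.25) and Npnt (-0.13) were not.

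At 1 month after 80 µg MWCNT 8 genes of these lists were higher and none lower, among them P4ha3 (0.93 ± 0.18), Itga7 (0.70 ± 0.16), Col28a1 (0.69 ± 0.17), Col24a1 (0.59 ± 0.13), Cd44 (0.57 ± 0.10), Hmmr (0.49 ± 0.11) and Tgfbi (0.39 ± 0.11). At 12 months after crocidolite 5 of 16 laminins and linkers were lower, with Nid1 at -0.47 ± 0.12 and Lama4 at -0.42 ± 0.10, and 3 of 14 elastic fibre genes, with Ltbp4 at -0.46 ± 0.13 and Ltbp1 at -0.41 ± 0.11. Cd44 (0.60 ± 0.11), Sdc1 (0.59 ± 0.11), Itga7 (0.70 ± 0.17), Lair1, a collagen receptor of leukocytes (0.68 ± 0.17), Thbs4 (0.94 ± 0.27) and Col28a1 (0.61 ± 0.18) were higher there, and Pcolce2 (-0.55 ± 0.11) and Col6a6 (-0.47 ± 0.15) lower. The macrophage and fibroblast marker values given above stand beside these counts too. Npnt, Itga8 and Mfap4 belong both to the lung fibroblast markers and to these lists, so they enter both counts.

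From mouse to mouse within groups, several collagens varied with Col1a1. After subtracting each group's mean, the level of Col1a1 over all mice of the 18 groups correlated with that of Col1a2 at Pearson r = 0.88 (Spearman rho = 0.86), of Col3a1 at 0.86 (0.81) and of Col6a3 at 0.81 (0.79). Each of these had a permutation p of 1e-05, the smallest that 100000 permutations can give, and an adjusted p of 1.55e-05 over the 45 relations computed. Without the 2 mice farthest from the median of Col1a1 the r values were 0.87, 0.83 and 0.82. In the 100 mice without the title word they were 0.85, 0.81 and 0.81, and in the 37 with it 0.92, 0.90 and 0.80, the mouse with an array of each kind being left out. Of the other 39 genes 32 had a positive r with Col1a1, 29 of them past an adjusted permutation p of 0.05, and the median r over all 780 pairs of the 40 genes was 0.24. The same share was not computed over all genes of the array, so these counts are not shown to be particular to matrix genes.

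A few genes ran the other way. Postn had r = -0.33 with Col1a1 (rho = -0.32, permutation p = 8e-05, adjusted p = 0.000116; -0.32 without the 2 farthest mice), Col12a1 had -0.28 (rho = -0.25, permutation p = 0.00111, adjusted p = 0.00151; -0.24 without them) and Fbln5, an elastin-binding fibulin, had -0.23 (rho = -0.20, permutation p = 0.00544, adjusted p = 0.0068; -0.19 without them). Within the arrays without the title word these were -0.30, -0.20 and -0.12, and within those with it -0.34, -0.32 and -0.44. Col4a3 had r = -0.09 (permutation p = 0.281), Col4a5 -0.04 and Lox -0.04, so these varied apart from Col1a1.

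**Figure D4:**
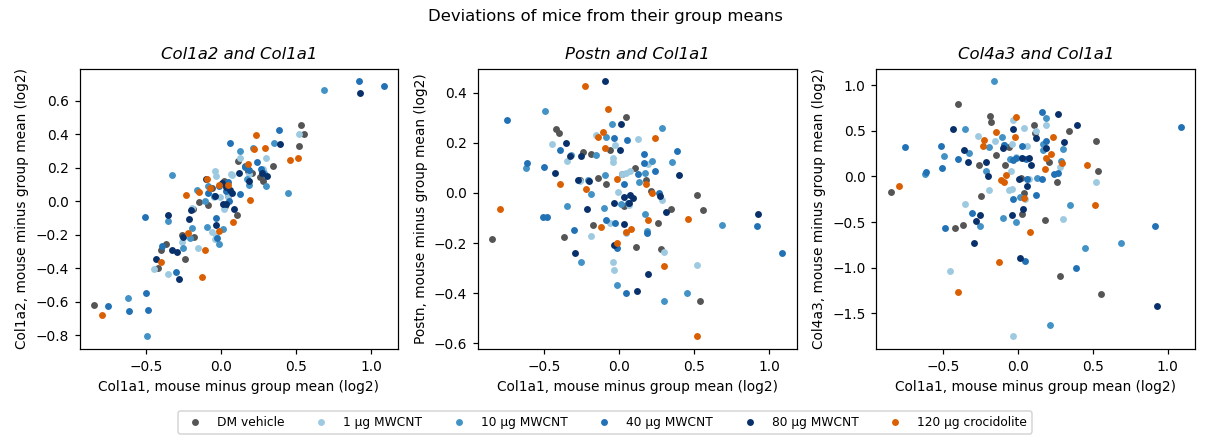
Deviations of all mice from their group means (log2) for Col1a2, Postn and Col4a3 (vertical axes) against Col1a1 (horizontal axes), coloured by treatment. Col1a2 follows Col1a1 (r = 0.88), Postn runs weakly the other way (r = -0.33) and Col4a3 shows no clear relation (r = -0.09).

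Of 6 pairs of neighbouring genes 3 were among the 10 pairs with r over 0.8. Col4a3 and Col4a4 had r = 0.90 (rho = 0.88), although neither followed Col1a1. Col6a1 and Col6a2 had 0.84 (rho = 0.83), Col4a1 and Col4a2, whose windows share bases, 0.82 (rho = 0.82), Col3a1 and Col5a2 0.66 (rho = 0.68), Dcn and Lum 0.61 (rho = 0.59) and Col4a5 and Col4a6 0.50 (rho = 0.52), each with a permutation p of 1e-05 and an adjusted p of 1.55e-05. Without the 2 farthest mice these 6 values lay between 0.48 and 0.89. In a sample of mixed tissue, genes of the same cells vary together with the share of those cells. The mean level of 7 smooth muscle markers had r = 0.59 with Col1a1 over the same mice, that of 14 lung fibroblast markers 0.43, of 12 cartilage markers 0.39 and of 10 macrophage markers -0.01, as descriptions of mice that share arrays and RNA. The 8 activated fibroblast and myofibroblast markers had r = 0.38 with Col1a1, 0.36 with Tnc and -0.13 with Postn. Their group medians lay between 6.01 and 6.27, and 3 of the 8 were below the median level of all genes. Over all marker lists r with Tnc lay between -0.09 (lung tissue) and 0.36 (smooth muscle), with 0.31 for macrophages and 0.24 for lung fibroblasts. With Postn the cartilage list had r = -0.41, the lung fibroblast list 0.37, the endothelial list 0.36, the macrophage list -0.24 and the smooth muscle list 0.12. Of the 12 cartilage markers 10 were below the median level of all genes, so both cartilage values rest mostly on weakly measured genes. The part of tissue sampling in these relations was not tested.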

How the data were processed

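The authors deposited log2 expression values for 41345 array features per array; the submitters' processing notes list RMA and the packages oligo and limma, while versions, roles and the annotation build were not given in the sources used here. Features paired with 1 symbol (23521) were kept, the feature of highest mean level standing for each of 22180 genes; 1814 paired with several symbols and 16010 with none were left out. The 2 arrays of 1 mouse were averaged, so that each mouse counted once. Limma 3.58.1 (R 4.3.3) fitted 1 mean per group with 120 residual degrees of freedom and empirical Bayes moderation, and p-values were adjusted by Benjamini-Hochberg over all genes. The step was tested on simulated data. Arrays have no read depth, so their number limits precision. Mice are taken as separate animals from their numbers in the titles. Named by rule were Col1a1, Col3a1, Eln, Fn1, Tnc and Col4a3, up to 4 called members of largest difference per main comparison, and up to 2 per further list; other members were named to account for the set. The members and the other gene lists were chosen with earlier results of these data known. Alternatives were other scalings, array weights, the title word, accession order, feature choice and left-out arrays. Promoter sequences are from RefSeq (GRCm38.p6).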

Additional observations from a re-analysis of the deposited data

Results flagged for a closer look

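In 180 sets of 1 gene in 1 group, 15 held a mouse set apart from the rest of its group by Dixon's 95% criterion, which chance meets in about 1 set in 20. Each value is a log2 level, followed by that of the nearest mouse. At 1 month after crocidolite Col1a1 was highest in replicate 4 (9.59, nearest 9.06), and Fn1 (11.27, nearest 10.72) and Tnc (7.62, nearest 7.02) in replicate 1. At 6 months after crocidolite Tnc was highest in replicate 1 (6.68, nearest 6.09). At 12 months after 80 µg MWCNT replicate 5 was highest for both Col1a1 (8.99, nearest 8.18) and Col3a1 (8.95, nearest 8.23). At 12 months after 1 µg replicate 3 was highest for Col1a1 (8.51, nearest 7.96) and Col13a1 (6.21, nearest 5.88), and replicate 4 was lowest for Col4a3 (5.88, nearest 7.57). At 6 months after 40 µg replicate 8 was lowest for Fn1 (9.70, nearest 10.26) and Col13a1 (5.06, nearest 5.77). After 10 µg Eln was lowest in replicate 8 at 6 months (6.77, nearest 7.71) and Col5a2 in replicate 6 at 1 month (5.48, nearest 6.27). In DM mice Col3a1 was lowest in replicate 4 at 6 months (7.92, nearest 8.29) and Col5a2 in replicate 2 at 12 months (4.95, nearest 5.80).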

How the results depend on the processing

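No paired analysis was possible because the labels give no replicate numbers that link mice across groups, and the numbers used here follow accession order. Counts are of the 40 genes called. The share of all genes called in the same setting is not given. A setting that calls more genes throughout the array could raise these counts too. For crocidolite against DM at 1 month (6) there were 1 with only the compared groups fitted, 3 with array weights, 0 in arrays without and 0 in arrays with the title word, 1 without the 10 arrays of lowest correlation, and 2 to 7 with 1 crocidolite mouse left out, the 2 coming without replicate 4 or 5. At 6 months (2) there was 1 with median centring and 4 with array weights. At 12 months (1) there were 3 with median centring, array weights, the word as a covariate or genes above the median level, 4 with quantile normalization or without the 10 arrays, 6 in arrays without the word, 0 in those with it and 2 with a spline over accession order. For 80 µg MWCNT at 1 month (2) there was 1 with median centring or the spline and 0 within either kind of array, and at 6 months (1) 0 with compared groups alone, the covariate or arrays without the word. For 40 µg at 12 months (0) there were 5 with array weights, 11 in arrays without the word and 1 without the 10 arrays, all lower. For 80 µg against crocidolite at 12 months (0) there were 2 in arrays without the word. The dose trend at 1 month (4) had 1 in arrays without the word, that at 6 months (0) had 1 with array weights, the spline or genes above the median, and that at 12 months (2) had 1 with either scaling or the covariate, 0 with compared groups alone or arrays with the word, 5 with array weights, and 4 in arrays without the word or without the 10 arrays. The 80 µg effect at 12 against 1 month (0) had 1 with array weights. For DM at 12 against 1 month (11) there were 5 with compared groups alone, 2 and 0 in arrays without and with the word, and 7 without the 10 arrays. DM at 6 against 1 month (0) had 2 with median centring, array weights, the spline or genes above the median, and 1 with quantile normalization, compared groups alone or without the 10 arrays. DM at 12 against 6 months (0) had 4 with array weights, 3 with the covariate, and 1 with quantile normalization, without the 10 arrays or with genes above the median. The cause of these shifts was not tested, beyond the smaller number of arrays or genes in some settings. Of 813 differences of the followed genes 696 kept direction and side of the threshold, 63 lost the call and 11 gained it. The other 43 changed sign, all of them uncalled before and after, with a difference of at most 0.28 as first fitted. Leaving out the DM mouse at 1 month highest in muscle or in squamous markers, chosen after seeing the data, gave 11 and 10 calls for DM at 12 against 1 month and 0 for 6 against 1. The planned correlation minimum of 0.95 left out no array, so the 10 lowest were left out instead, a choice made after seeing the data. Groups with fewer than 2 arrays of a kind gave no value within it. In 20 of 31 comparisons 1 of the 2 scalings moved the share of higher genes among all called by over 10 percentage points, and no scaling moved the median of all genes by more than 0.094.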
